A study of Mus musculus with 5 samples.

Results

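Expression of 10 genes of the NF-kB system was compared between D4M.3A mouse melanoma cells that carry constitutively active MNK1 (caMNK) and cells that carry the empty pBABE vector. The genes were taken by symbol from the deposited count tables, and all 10 were found among 46959 symbols. They are the subunit genes Rela, Relb, Nfkb1 and Nfkb2, the inhibitor genes Nfkbia, Nfkbie, Bcl3 and Tnfaip3, and the target genes Ier3 and Lcn2. All 10 were abundant enough to be tested. D4M.3A is an established line from a C57BL/6 mouse melanoma with mutant Braf. The control group held 2 libraries of pBABE cells and the other group 3 libraries of caMNK cells, all given as passages 7 to 12. MNK1 normally acts downstream of ERK and p38 and phosphorylates eIF4E, which binds the cap of mRNAs. The libraries are described as biological replicates, with no word on separate cultures or infections, so the p-values measure the spread between these libraries. Whether a difference comes from the kinase or from another feature of the transduced cells cannot be told apart.

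NF-kB transcription factors are dimers of Rel proteins that bind kappaB sites in DNA. In resting cells inhibitory IkB proteins hold most dimers in the cytoplasm, and cytokine or pattern receptor signals lead to phosphorylation and breakdown of the inhibitor. Genes of several inhibitors are themselves NF-kB targets, which gives negative feedback, and in melanoma the pathway is known for driving cytokine and survival genes.

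Among the 10 genes Lcn2 and Ier3, listed here as targets, rose, and the 8 subunit and inhibitor genes did not pass the test. Inhibitor genes can be NF-kB targets too, so not every possible target among the 10 was called. A gene that did not pass may still have changed within its interval, which for Nfkbie reached 1.48-fold higher. Lcn2, which encodes a secreted protein that binds iron-loaded siderophores, and Ier3, an immediate early gene whose product modulates survival, rose in caMNK. No subunit or inhibitor gene passed. Of the 10 genes, 2 were called higher, against 4.42% of the 17026 genes tested, and 0 were called lower, against 3.52%. The calls are those of the edgeR quasi-likelihood test at a Benjamini-Hochberg adjusted p under 0.05 over all genes tested. At an unadjusted p under 0.05 the same 2 of the 10 genes passed, against 25.9% of all genes tested in either direction. DESeq2 also called 2 of the 10 higher (5.13% of all genes) and 0 lower (4.98%), and limma-voom called Ier3 higher (3.87%) and 0 lower (3.3%). The median log2 fold change of the 10 genes was 0.07, and that of all genes tested was −0.0021.

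The promoters of the genes that rose are set beside those of the inhibitor gene Nfkbia and the subunit gene Nfkb2. Neither of the latter passed. The sequences are shown because several members of this family carry kappaB sites close to their start. The windows run from 250 bases before to 50 bases after the annotated start, are from RefSeq on GRCm38.p6 (the same build as mm10) and are written along the strand of the gene. Capitals mark matches to the kappaB consensus of 10 bases, searched on both strands.
Lcn2, chr2:32387690-32387989, minus strand: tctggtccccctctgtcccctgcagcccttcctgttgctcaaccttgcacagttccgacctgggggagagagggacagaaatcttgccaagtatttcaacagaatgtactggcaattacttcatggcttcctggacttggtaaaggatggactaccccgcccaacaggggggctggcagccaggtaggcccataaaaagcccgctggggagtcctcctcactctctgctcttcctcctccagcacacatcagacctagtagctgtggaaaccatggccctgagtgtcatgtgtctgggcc
Ier3, chr17:35821463-35821762, plus strand: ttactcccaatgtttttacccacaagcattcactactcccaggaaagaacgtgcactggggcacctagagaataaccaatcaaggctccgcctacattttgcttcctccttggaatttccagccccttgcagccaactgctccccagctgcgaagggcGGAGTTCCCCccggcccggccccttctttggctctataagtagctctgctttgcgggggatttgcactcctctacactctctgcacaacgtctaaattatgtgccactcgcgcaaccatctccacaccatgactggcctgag
Nfkbia, chr12:55492598-55492897, minus strand: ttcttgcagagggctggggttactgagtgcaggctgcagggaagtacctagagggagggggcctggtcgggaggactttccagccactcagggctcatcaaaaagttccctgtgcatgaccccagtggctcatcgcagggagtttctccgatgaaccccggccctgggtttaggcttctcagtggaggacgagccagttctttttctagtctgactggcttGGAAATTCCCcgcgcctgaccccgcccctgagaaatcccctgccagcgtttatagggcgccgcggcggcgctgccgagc
Nfkb2, chr19:46304487-46304786, plus strand: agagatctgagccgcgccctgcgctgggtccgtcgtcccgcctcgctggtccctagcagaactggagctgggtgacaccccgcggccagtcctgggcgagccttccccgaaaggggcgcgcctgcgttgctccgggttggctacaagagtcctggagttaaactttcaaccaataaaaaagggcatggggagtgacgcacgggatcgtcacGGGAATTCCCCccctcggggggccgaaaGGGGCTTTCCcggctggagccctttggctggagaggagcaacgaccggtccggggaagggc
Of the 10 genes, 8 had a window, and 6 of these 8 held a match in at least 1 window. Counted by window, since a gene can have several that overlap, 8 of the 11 windows of these genes held a match, where 4.51% of all 32851 windows did. The Nfkb2 windows that start at 46305445 and 46305680 overlap and have 1 site in common, which was counted in each. The entries for Relb and Nfkb1 were not in the table. The Ier3 window held 1 match, starting at position −92 from the start site, and the Nfkbia window 1 match, at −29. In the Nfkb2 window overlapping matches began at −39 on both strands and at −38, and a separate one at −11. The Lcn2 window held 0 matches, which says only that these letters are not in these 300 bases. This window lies within the annotated Lcn2 span, which runs on to 32388252, so the sequence around that upstream end was not searched. Ier3 is shown with a match and Lcn2 without one, and Nfkbia and Nfkb2 each have at least 1. Among the genes not shown, Nfkbie, Bcl3 and Tnfaip3 held a match in a window. Rela, which did not pass either, held 0. A match is a description of sequence and not evidence of binding.

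Total RNA was sequenced, and the libraries held 27827199 to 48794336 counts, with between 22686 and 24034 genes at 1 count or more. Mknk1, the gene of the introduced kinase, measured 15.2 and 16.7 CPM (read counts relative to the TMM-scaled library total, edgeR's cpm) in pBABE and 167, 155 and 168 CPM in caMNK. Of 12 melanocyte and melanoma markers 4 were abundant enough to test. Braf (21.6 to 27.7 CPM, sharing reads with Ndufb2) and Mitf (4.35 to 6.48 CPM) were the most abundant. Here and below, a gene is said to share reads where an overlapping gene has 10% or more of its counts. The reads in common were not counted. The pigment gene Dct was at 0 in every library, and Sox10, Tyr and Mlana had between 0 and 2 counts. Pmel had 7 to 16 counts and shares reads with Cdk2 and Dgka, and S100b had 79 to 127 counts and shares reads with Dip2a. In the same comparison 6 of 10 tested mitochondrial mRNAs rose (such as mt-Co1 and mt-Cytb), as did 5 of 7 tested nuclear non-coding RNAs. The latter include Malat1, which shares reads with Gm37376, and Gas5. Over all tested genes 4.42% were called higher, and 22.3% had every caMNK library above both pBABE libraries. The summed levels of the mitochondrial and nuclear lists did not overlap between groups. They were 12290.4 to 13533 against 18772 to 21665 CPM and 503 to 521 against 778 to 1073 CPM. The part of these shifts in the results below was not tested. The deposited length equalled the annotated span from first to last base, introns included, for 7 of the 10 genes, and was 7354 against 8066 bases for Nfkb2, 3237 against 3238 for Nfkbia and 7454 against 7467 for Nfkbie. A level can therefore include intronic reads.

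**Figure D1:**
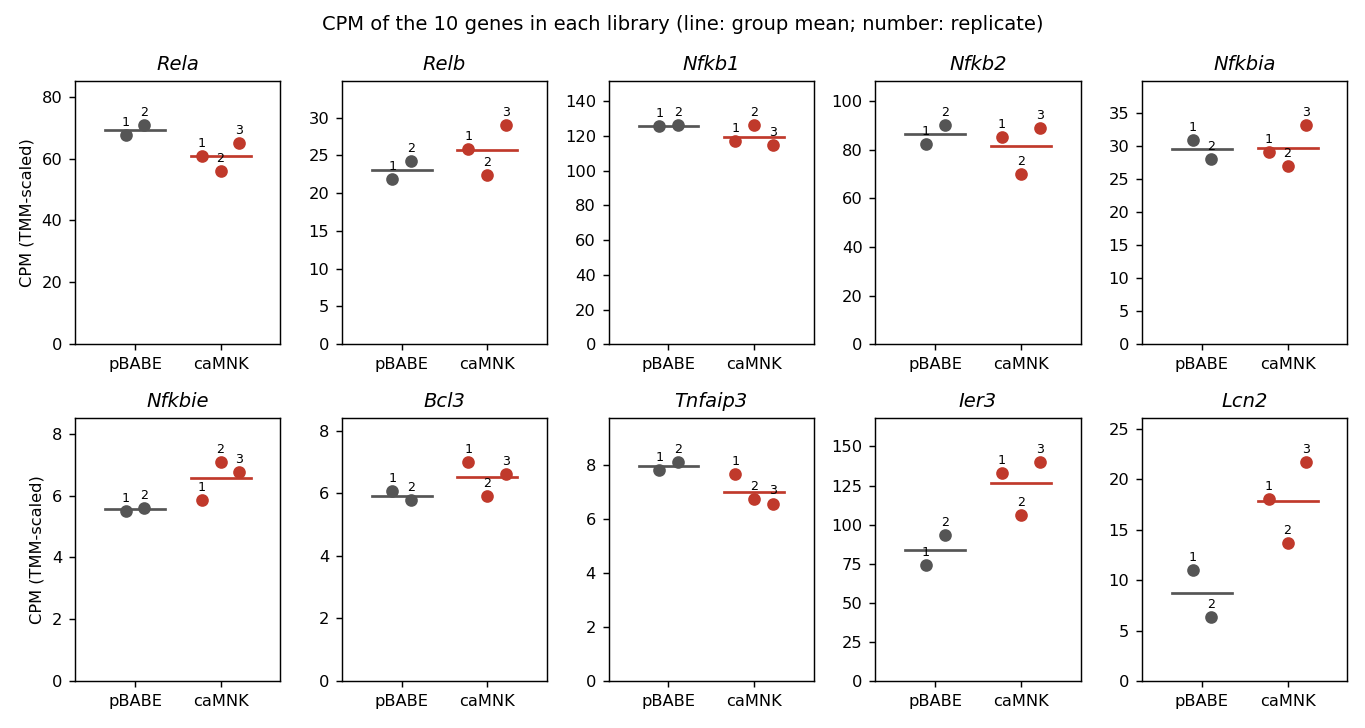
CPM (vertical axis, TMM-scaled, from 0) of the 10 genes in each of the 2 pBABE and 3 caMNK libraries. Points are libraries with their replicate number and lines are group means. Every caMNK library lies above both pBABE libraries for Nfkbie, Ier3 and Lcn2, and below both for Rela and Tnfaip3.

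Lcn2 encodes lipocalin 2, which starves bacteria of iron and also circulates as a marker of inflamed or injured epithelium. The gene is found on the minus strand of chromosome 2 (mm10, 32384633 to 32388252), and no other annotated gene overlaps it. The pBABE libraries held 457 and 206 reads of it, and the caMNK libraries 517, 667 and 805. On the CPM scale it measured 11.0 and 6.38 in pBABE replicates 1 and 2 and 18.0, 13.7 and 21.8 in caMNK replicates 1, 2 and 3. All caMNK libraries lay above both pBABE libraries, with caMNK replicate 2 the nearest to them. The means were 8.67 ± 3.24 CPM (SD, n = 2) and 17.8 ± 4.02 CPM (SD, n = 3), a 2.04-fold rise (log2 fold change 1.03, SE 0.252, 95% interval 0.45 to 1.60, edgeR adjusted p = 0.0444). In bulk RNA more cells with the transcript and more transcript per cell cannot be told apart. The pBABE libraries were far apart for this gene, with a ratio of 1.72 between them, and the highest caMNK library was 1.59 times the lowest. The 8 genes that did not pass had ratios of 1.01 to 1.11 between the pBABE libraries and of 1.10 to 1.30 between the caMNK extremes.

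The size of the Lcn2 rise depended on which control library was kept. Without pBABE replicate 1 its log2 fold change was 1.47 (edgeR adjusted p = 0.112), and without pBABE replicate 2 it was 0.69 (adjusted p = 0.273). Without caMNK replicate 1 it was 1.02 (adjusted p = 0.128). Over the 13 alternatives tried, the log2 fold change lay between 0.69 and 1.47, and 8 of the 13 kept the call. These 8 include the fit with a replicate block (log2 fold change 0.90), in which caMNK replicate 3 did not inform the group difference. The lowest edgeR adjusted p, 1.43e-10, came with no filter, where the log2 fold change was nearly the same as in the main comparison (1.02).

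Neutrophils store lipocalin 2 in their granules, so neutrophil genes were read beside Lcn2. Of 10 neutrophil markers, S100a9, Ly6g, Mpo and Ngp were at 0 in all 5 libraries. The summed level of the list was 1.01 to 1.39 CPM in pBABE and 2.13 to 3.24 CPM in caMNK. Nearly all of it came from S100a8 and Ltf. S100a8 measured 0.744 and 1.05 CPM in pBABE and 1.22, 1.30 and 2.22 CPM in caMNK (edgeR adjusted p = 0.161). Ltf, which encodes the iron-binding protein lactoferrin, measured 0.264 and 0.279 CPM in pBABE and 0.802, 0.782 and 1.03 CPM in caMNK (log2 fold change 1.67, edgeR adjusted p = 0.0205). Ltf had 9 to 38 counts in each library, and the median log2 fold change of the 2 tested neutrophil markers was 1.25. Lcn2 was at 6.38 CPM in its lowest library. The part of neutrophil markers in the Lcn2 rise was not tested. Macrophage markers summed to 16.7 to 17.9 CPM in pBABE and 16.0 to 21.8 CPM in caMNK. Of the 3 tested, 0 passed (4.42% of all tested genes higher and 3.52% lower). The most abundant macrophage markers were Csf1r, which shares reads with Hmgxb3, and Cd14, and for both the groups overlapped. Cd68, named after its values were seen, measured 1.87 and 2.20 CPM in pBABE and 3.10, 2.43 and 4.30 CPM in caMNK. Its groups did not overlap (log2 fold change 0.68, edgeR adjusted p = 0.144). Over all tested genes 22.3% had every caMNK library above both controls. The part of macrophage markers in the results was not tested. Lymphocyte markers, led by Cd79a and Cd4, summed to under 1 CPM in every library. Endothelial markers, led by Cdh5 and Tek, summed to 5.52 to 9.67 CPM in pBABE and 4.11 to 4.46 CPM in caMNK, and Cdh5, which made up most of the sum, was called lower. The other 3 tested markers had higher estimates and did not pass, and the median log2 fold change of the 4 was 0.94. Tek measured 0.240 and 0.403 CPM in pBABE and 0.697, 0.514 and 0.486 CPM in caMNK (log2 fold change 0.82, edgeR adjusted p = 0.213). Esam and Pecam1, named after their values were seen, had log2 fold changes of 1.45 (edgeR adjusted p = 0.0627) and 1.07 (adjusted p = 0.264). The part of endothelial markers in the results was not tested.

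Ier3 was the gene with the highest level of the 10 per length. The gene takes up 1240 bases of chromosome 17 (35821684 to 35822923, plus strand), of which 1131 are exonic. Ier3 measured 74.3 and 93.4 CPM in pBABE and 133, 106 and 140 CPM in caMNK. Again every caMNK library was above both controls and caMNK replicate 2 was the lowest of its group. The means were 83.9 ± 13.5 CPM (SD, n = 2) and 127 ± 18.0 CPM (SD, n = 3), a 1.51-fold rise (log2 fold change 0.59, SE 0.145, 95% interval 0.26 to 0.92, edgeR adjusted p = 0.0430). The call was lost without pBABE replicate 1 (log2 fold change 0.43, adjusted p = 0.373), without pBABE replicate 2 (0.76, adjusted p = 0.116) and without caMNK replicate 1 (0.56, adjusted p = 0.151). Over the 13 alternatives 9 kept the call of Ier3. These 9 include the fit with a replicate block (log2 fold change 0.51), in which caMNK replicate 3 did not inform the group difference. The lowest edgeR adjusted p of Ier3, 8.00e-06, came with no filter. There the log2 fold change was nearly the same as in the main comparison (0.58).

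The pBABE libraries ranked in opposite order for the genes that rose. Lcn2 was higher in pBABE replicate 1, and Ier3 in pBABE replicate 2. In caMNK both genes had the order replicate 3, replicate 1, replicate 2. Of the 10 genes, 7 were lowest in caMNK replicate 2 among the caMNK libraries, as were 41.0% of all tested genes.

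**Figure D2:**
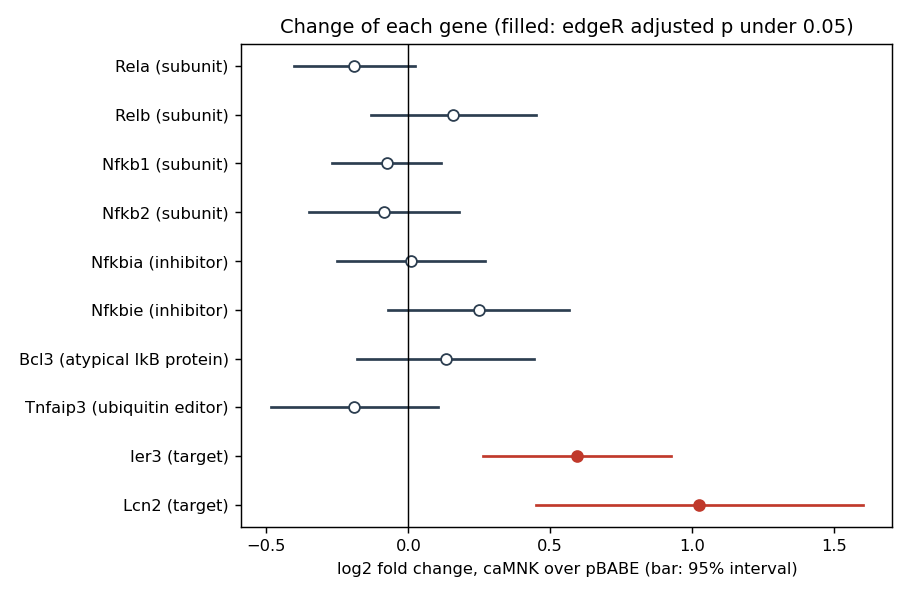
Log2 fold change of caMNK over pBABE (horizontal axis) for each of the 10 genes, with the 95% interval of the edgeR fit as a bar. Filled points passed at an adjusted p under 0.05. The intervals of Ier3 and Lcn2 lie above 0, and the other 8 include 0.

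Rela encodes the subunit that carries the main transactivation domain of the canonical dimer. It measured 67.6 and 70.9 CPM in pBABE and 61.0, 56.0 and 65.1 CPM in caMNK. The groups did not overlap and caMNK was lower, with a log2 fold change of −0.19 (95% interval −0.40 to 0.02, edgeR adjusted p = 0.241). It lies on chromosome 19 from 5637483 to 5648130.

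Nfkb1 encodes the precursor of the DNA-binding partner of RelA. Its values were 125 and 126 CPM in pBABE and 117, 126 and 115 CPM in caMNK, and the groups overlapped. The log2 fold change was −0.08 (95% interval −0.27 to 0.12, edgeR adjusted p = 0.617). Its span of 106893 bases on chromosome 3 (135584655 to 135691547) is the longest of the 10, and its exons together cover 12061 bases, so reads within introns can make up much of its count.

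The non-canonical branch uses RelB and the Nfkb2 product, whose precursor is processed after the kinase NIK acts. Relb (chromosome 7, 19606217 to 19629438) measured 21.9 and 24.3 CPM in pBABE and 25.8, 22.4 and 29.0 CPM in caMNK. The groups overlapped through caMNK replicate 2 (log2 fold change 0.16, 95% interval −0.13 to 0.45, edgeR adjusted p = 0.480). Among the genes that did not pass, Relb came nearest to a call in any alternative, with an adjusted p of 0.0520 without caMNK replicate 2, and its adjusted p ranged up to 0.918 over all alternatives. Nfkb2 (chromosome 19, 46304320 to 46312385) measured 82.4 and 90.2 CPM in pBABE and 85.2, 70.1 and 89.0 CPM in caMNK. It overlapped as well (log2 fold change −0.08, 95% interval −0.35 to 0.18, edgeR adjusted p = 0.697). The annotated end of Nfkb2 overlaps Psd, on the opposite strand, by 299 bases, and Psd had 16.6% as many counts in all. The reads in common were not counted.

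Nfkbia encodes IkB-alpha, the inhibitor that is broken down and then made anew within one cycle of NF-kB activity, and its mRNA is widely read as an index of that activity. It lies on chromosome 12 from 55489410 to 55492647. Nfkbia measured 31.0 and 28.1 CPM in pBABE and 29.1, 27.0 and 33.3 CPM in caMNK. The pBABE values lay inside the caMNK range, the log2 fold change was 0.01 and the 95% interval ran from −0.25 to 0.27 (edgeR adjusted p = 0.971). A change of Nfkbia by more than 1.21-fold upward lay outside that interval.

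Nfkbie encodes IkB-epsilon, a slower inhibitor, and lies on chromosome 17 from 45555703 to 45563169. It measured 5.49 and 5.61 CPM in pBABE and 5.86, 7.10 and 6.76 CPM in caMNK. The groups did not overlap, with caMNK higher, and the log2 fold change was 0.25 (95% interval −0.07 to 0.57, edgeR adjusted p = 0.305). Bcl3 encodes an atypical nuclear IkB protein that works with homodimers of the small subunits as a coactivator. Bcl3 (chromosome 7, 19808462 to 19822770) measured 6.07 and 5.76 CPM in pBABE and 7.01, 5.90 and 6.62 CPM in caMNK, and the groups overlapped (log2 fold change 0.13, 95% interval −0.18 to 0.44, edgeR adjusted p = 0.592). Bcl3 shares its span with Gm16174 and Gm16175 on the opposite strand, and the latter had 26.0% as many counts.

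Tnfaip3 encodes A20, a ubiquitin-editing enzyme that shuts off signalling from TNF and Toll-like receptors. It lies on chromosome 10 from 19000910 to 19015657. Its values were 7.80 and 8.12 CPM in pBABE and 7.67, 6.73 and 6.57 CPM in caMNK. All caMNK libraries lay below both controls, with a log2 fold change of −0.19 (95% interval −0.48 to 0.10, edgeR adjusted p = 0.396). Over the 8 genes that did not pass, 4 had a log2 fold change above 0 and 4 below 0. Their adjusted p-values lay between 0.241 and 0.971. Their 95% intervals together ran from −0.48 to 0.57 on the log2 scale, which is at most 1.40-fold lower and 1.48-fold higher. Of the 10 genes, 3 had all caMNK libraries above both controls and 2 had all below. Over all tested genes these shares were 22.3% and 22.6%.

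Levels of different genes were set against each other per kilobase of the counted span. In pBABE the order was Ier3 at 67.6, Nfkb2 at 11.7, Nfkbia at 9.14, Rela at 6.50 and Lcn2 at 2.40 CPM per kilobase. Nfkb1 followed at 1.18, Relb at 0.993, Nfkbie at 0.745, Tnfaip3 at 0.540 and Bcl3 at 0.414 CPM per kilobase. Each gene of that order lay apart from the next in both pBABE libraries. In caMNK the order of means was the same, but 4 of 9 neighbouring pairs overlapped between libraries. These were Nfkb2 with Nfkbia, Rela with Lcn2, Nfkb1 with Relb, and Tnfaip3 with Bcl3. Lcn2 stood at 4.93 and Rela at 5.70 CPM per kilobase in caMNK. Per kilobase of annotated exon, Ier3 was again the highest in pBABE, at 74.2, and Rela came next at 22.5 CPM per kilobase, so the order below Ier3 depends on how introns are counted.

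The other genes of the pathway were read from 6 lists, which together hold 97 genes beside the 10, of which 82 were abundant enough to test. In edgeR, 8 were called higher and 0 lower, against 4.42% and 3.52% of all genes. DESeq2 gave 9 higher and 2 lower, the last being Cyld and Traf3, named after their values were seen. The lists and their members were chosen with earlier results of these data known, and their counts are not independent evidence of direction. The median log2 fold change of the 82 was 0.01.

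**Figure D3:**
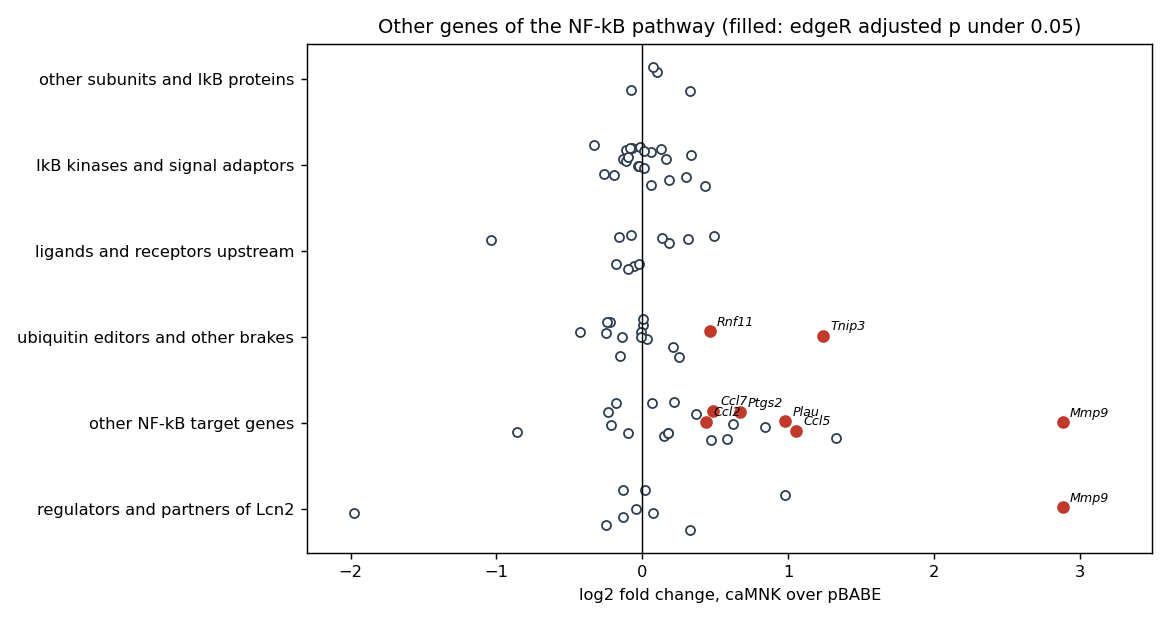
Log2 fold change of caMNK over pBABE (horizontal axis) for the tested genes of 6 lists of the NF-kB pathway, 1 point a gene, spread vertically within a list for legibility. Filled points with names passed at an edgeR adjusted p under 0.05. The 8 genes that passed sit among the brakes and the target genes, and Mmp9 appears in both lists that hold it.

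Ligands and receptors at the head of the pathway did not pass: 0 of 11 tested members were called in either direction, with a median of −0.06. With 4.42% of all tested genes called higher and 3.52% lower, 0 calls in a list of this size are near those shares. The ligand genes Tnf, Lta, Ltb and Il1b had between 0 and 4 counts in every library. Il1a, an alarmin cytokine gene, was the ligand with the lowest p, at 0.600 and 0.651 CPM in pBABE and 0.279, 0.411 and 0.189 CPM in caMNK (log2 fold change −1.04, edgeR adjusted p = 0.127), and shares reads with Gm14023. Tnfrsf12a, the receptor of the cytokine TWEAK, measured 117 and 130 CPM in pBABE and 162, 133 and 167 CPM in caMNK (log2 fold change 0.31, edgeR adjusted p = 0.137).

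Among IkB kinases and adaptors 0 of 22 passed (4.42% of all tested genes higher and 3.52% lower), with a median of −0.02. Map3k14, which encodes NIK, the kinase of the non-canonical branch, had the lowest p and just missed the threshold. It measured 10.4 and 9.42 CPM in pBABE and 13.8, 12.9 and 13.5 CPM in caMNK (log2 fold change 0.43, SE 0.111, edgeR adjusted p = 0.0505). Traf3, whose product marks NIK for degradation, was next. It measured 61.2 and 60.9 CPM in pBABE and 47.0, 52.1 and 46.7 CPM in caMNK, all below the controls (log2 fold change −0.33, SE 0.0887, edgeR adjusted p = 0.0578; 0.0420 by DESeq2). The groups did not overlap for either gene.

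The remaining subunit and the other IkB genes gave 0 of 4 (4.42% of all tested genes higher and 3.52% lower). Rel, which encodes c-Rel, measured 6.81 and 7.65 CPM in pBABE and 7.46, 9.77 and 5.89 CPM in caMNK (edgeR adjusted p = 0.802). Nfkbiz encodes IkB-zeta, a nuclear cofactor needed for Lcn2 induction in other cells. It measured 46.1 and 46.2 CPM in pBABE and 61.6, 52.8 and 59.7 CPM in caMNK, without overlap (log2 fold change 0.33, 95% interval 0.11 to 0.55, edgeR adjusted p = 0.0728).

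Of 15 ubiquitin editors and other brakes, 2 rose, 0 fell and 13 did not pass (median −0.0083). The shares over all tested genes were 4.42% higher and 3.52% lower. Tnip3, which encodes a protein of the A20-binding family, rose 2.36-fold at a low level (log2 fold change 1.24, SE 0.255, edgeR adjusted p = 0.0247). It went from 0.552 and 0.744 CPM in pBABE to 1.39, 1.69 and 1.43 CPM in caMNK. Rnf11, a RING-finger partner of A20, rose from 130 and 139 CPM to 180, 190 and 185 CPM (log2 fold change 0.46, SE 0.0838, edgeR adjusted p = 0.0157). Both sets of libraries were apart. Tnfaip3, the gene of their shared partner A20, had a log2 fold change of −0.19 (edgeR adjusted p = 0.396).

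Of 22 tested target genes 6 rose, 0 fell and 16 did not pass, with a median log2 fold change of 0.40. Over all tested genes 4.42% were called higher and 3.52% lower. The target list too was chosen with earlier results of these data known, so its count is not independent evidence. Mmp9 encodes a gelatinase that forms a complex with lipocalin 2. Its values were 2.66 and 2.39 CPM in pBABE and 20.5, 11.7 and 24.2 CPM in caMNK, with the same order of caMNK libraries as Lcn2 (log2 fold change 2.88, edgeR adjusted p = 0.00465). Ccl5, a chemoattractant of T cells, measured 7.39 and 6.57 CPM in pBABE and 13.2, 15.2 and 15.2 CPM in caMNK (edgeR adjusted p = 0.00524). The urokinase gene Plau rose from 137 and 191 CPM to 353, 275 and 343 CPM (log2 fold change 0.98, edgeR adjusted p = 0.0122). The prostaglandin synthase gene Ptgs2 rose from 199 and 244 CPM to 359, 337 and 362 CPM (log2 fold change 0.67, edgeR adjusted p = 0.0110). The monocyte attractant genes Ccl2, which shares reads with Gm17268, and Ccl7 rose by log2 fold changes of 0.44 and 0.49 (edgeR adjusted p = 0.0166 and 0.0421). Plau followed the caMNK order only in that replicate 2 was the lowest, whereas Ccl2 and Ccl7 had replicate 1 the lowest. Without pBABE replicate 1, when 0.0631% of all genes were called higher, 0 of the 8 pathway genes passed in edgeR. Without pBABE replicate 2 (0.208% of all genes), Mmp9 and Plau passed, and without caMNK replicate 1 (1.04% of all genes), Mmp9 and Ccl5 passed. Of the target genes, 9 of 31 were too low to test, among them Icam1, Cxcl2 and Nos2, which in many cells respond strongly to NF-kB; their counts lay between 1 and 14 in every library.

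Of the 10 regulators and partners of Lcn2, Mmp9 was the 1 that passed, and the median was −0.01. Over all tested genes the shares called were 4.42% higher and 3.52% lower. The genes whose centred log2 CPM lay nearest to that of Lcn2 over the 5 libraries were Ces1f, Cotl1, Hr, Pmaip1 and Socs1, with root mean square distances of 0.140, 0.211, 0.219, 0.240 and 0.249 on the log2 scale. Ces1f, a carboxylesterase gene, measured 10.8 and 8.12 CPM in pBABE and 20.2, 13.8 and 25.9 CPM in caMNK. For Ier3 they were Clasrp, Evi2a, Fam110c, Bmp1 and Klhl21, at distances of 0.0628 to 0.0737. Evi2a lies within Nf1 and may share its reads. Clasrp measured 31.8 and 35.3 CPM in pBABE and 54.2, 43.4 and 54.4 CPM in caMNK. These neighbours were found by their likeness in the same 5 libraries, so their fold changes are not a further test.

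**Figure D4:**
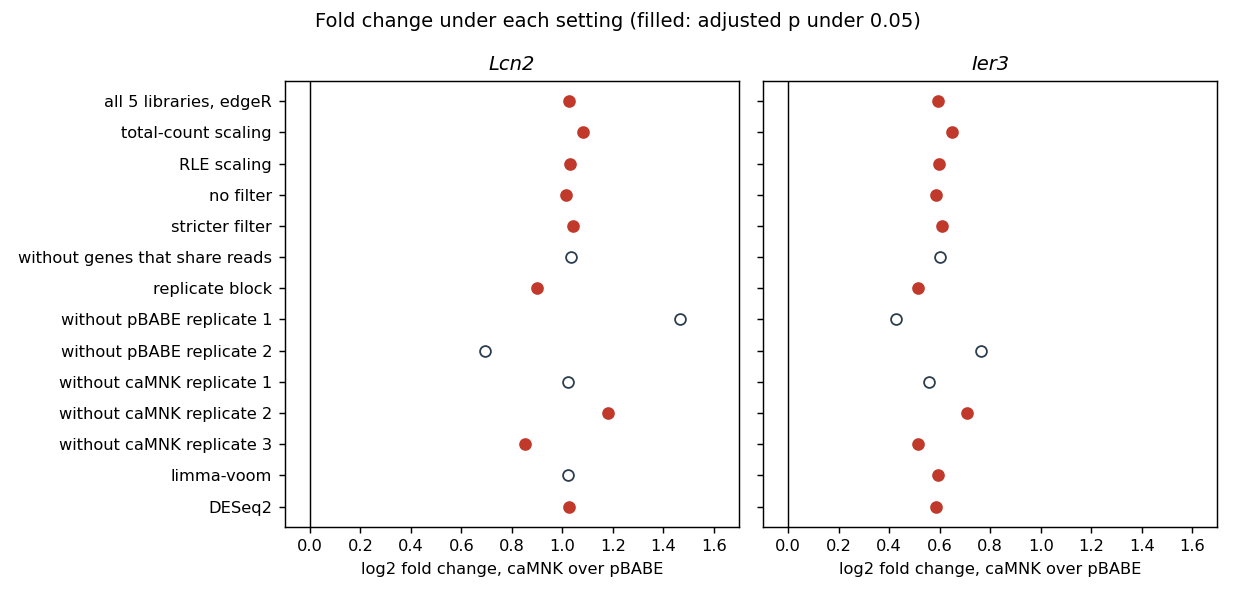
Log2 fold change of caMNK over pBABE (horizontal axis) for Lcn2 and Ier3 under the comparison of all 5 libraries and 13 alternatives, listed on the vertical axis. Filled points have an adjusted p under 0.05. Both genes stay above 0, and the open points include the fits without pBABE replicate 1, pBABE replicate 2 or caMNK replicate 1.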

How the data were processed

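Total RNA of 2 pBABE and 3 caMNK libraries was sequenced after TruSeq Stranded Total RNA preparation, per the labels' protocols. The deposited files hold raw read counts per gene, 1 table per library. The submitters' processing notes name featureCounts 1.5.3, STAR 2.5.3, SAMtools 0.1.19, Trimmomatic 0.32, FastQC 0.11.2, DESeq2 and build mm10. For the annotation release and the counting options, "not given in the sources used here" applies. Deposited lengths equalled the genomic span for 37267 of 44052 symbols with 1 GENCODE M21 entry, so for these the counted span includes introns. Of 215 protein-coding genes with 1000 counts or more that lie within a gene on the other strand, the enclosing gene had at least as many counts for 208 (143 of 145 on the same strand). The strand setting is not known, so overlapping genes on either strand are treated as able to share reads. Sharing is named where the overlapping gene has 10% or more of a gene's counts, and reads in common were not counted.

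All 5 libraries were compared with edgeR 4.0.16 (limma 3.58.1, R 4.3.3), with group as the term: filterByExpr, TMM and the robust quasi-likelihood test, Benjamini-Hochberg adjusted over 17026 genes, threshold 0.05. SE was taken from the log2 fold change and the F statistic, and 95% intervals from SE and the degrees of freedom of the fit. Every pair of libraries differed by more than sampling noise. Alternatives were total-count and RLE scaling, no filter (1 count or more in all), a filter of 1 CPM in 2 libraries, DESeq2 1.42.0, limma-voom, removal of genes that share reads, a replicate block, and each library left out. The code was tested on simulated data. Named are the 10 members; per pathway list the genes past the threshold up to 6, or the 2 of lowest p where 0 passed; the 2 most abundant of each quality or marker list; and the 5 genes of mean log2 CPM 3 or more (prior count 2) nearest to Lcn2 and to Ier3. Genes at or near 0 are named outside this rule. The members and lists were chosen with earlier results of these data known.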

Additional observations from a re-analysis of the deposited data

How the results depend on the processing

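Lcn2 and Ier3 kept their direction in all 13 alternatives, and of 128 values of the 10 genes under alternatives, 115 kept direction and side of the threshold, 9 lost a call and 4 changed sign. The count of the 10 genes called higher was 2 with all libraries, 1 by limma-voom (Lcn2 adjusted p = 0.0539), 0 without genes that share reads (Lcn2 0.0525, Ier3 0.0503; fewer genes tested) and 0 to 2 with 1 library left out; 0 were called lower in every alternative. It was 0 without pBABE replicate 1 (0.0631% of genes called higher), pBABE replicate 2 (0.208%) or caMNK replicate 1 (1.04%). Nfkb2 changed sign without caMNK replicate 2 (0.0126; range with a library left out −0.161 to 0.0126), and Nfkbia with the replicate block (−0.0744) and with a library left out (−0.0760 to 0.0771).

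Of all genes, 753 were called higher and 599 lower, 1591 and 1330 with no filter, 415 and 310 without genes that share reads, 11 to 2325 and 12 to 2617 with a library left out. Pathway genes called higher were 8 (4.42% of all genes), 13 with no filter (5.69%), and 2 to 21 with a caMNK library left out (1.04% to 13.9%). Those called lower were 0 (3.52% of all genes) and 2 by DESeq2 (4.98%). With no filter Cyld, Lrp2 and Traf3 made 3 lower (4.75%), and with a caMNK library left out there were 0 to 11 (0.474% to 15.7%). The 21 and 11 both came without caMNK replicate 2, where 13.9% and 15.7% of all genes were called. The cause of these changes was not tested. Total-count scaling shifted all genes by a median of 0.05, with 999 higher and 465 lower.

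With the replicate block, 1477 genes were called higher (8.67% of all tested) and 1231 lower (7.23%), and of the pathway genes 14 higher and 5 lower. No pBABE library has the number of caMNK replicate 3, so in that fit this library did not inform the group difference. The block terms also left few degrees of freedom to measure the spread between libraries, so the calls of that fit are not a firm check. Deviations from the group mean correlated at −0.055 and −0.025 between libraries of equal number. The deviations of the 2 pBABE libraries mirror each other, so this cannot tell whether equal numbers share a culture or day. The labels do not say so, and the main comparison has no replicate term. Lcn2 had 206 to 805 counts (SE 0.252 on the log2 scale) and Bcl3 186 to 287 (SE 0.137).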
